A study of Mus musculus with 35 samples.

Results

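Glo1, Btbd9, Dnah8 and Glp1r lie side by side on mouse chromosome 17, in a stretch that DBA/2 lines are known to carry partly in duplicate. Glo1 was higher in the amygdala of B6D2F1N mice than in that of C57BL/6J mice, by 1.45-fold (95% interval 1.29 to 1.62) over all 35 libraries. Hagh, whose product works directly after that of Glo1, had a fold of 0.992 (0.853 to 1.15). Btbd9, on one side of Glo1, had a fold of 1.22 (1.03 to 1.45) that did not pass the test across all genes (adjusted p = 0.339, limma). Dnah8 and Glp1r, on the other side, were near the limit of detection. These 5 genes were taken by name, out of 52636 genes with a count line, and all 5 symbols matched one Ensembl gene each.

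The libraries used here were made from polyadenylated RNA of the anterior and the posterior amygdala of 19 mice labelled female, collected by laser capture from stained frozen sections. C57BL/6J is an inbred strain, and B6D2F1N mice are, by strain nomenclature, first-generation hybrids of C57BL/6 and DBA/2. Standard housing was set against enriched housing, which added 1 h per day in a playground from postnatal day 77. All mice were kept on restricted food, were trained in a cognitive judgement bias task from postnatal day 70 for 37 to 90 days, and were killed after its test, so that age at death differed between mice. The anterior portion gave 4 C57BL/6J and 5 B6D2F1N libraries from standard housing and 2 and 5 from enriched housing. The posterior portion gave 4 and 5 libraries from standard housing and 4 and 6 from enriched housing. Mice are numbered here within strain and housing. The study's methods pair the names anterior and posterior with bregma ranges in the reverse of the usual anatomical order, and the names are used here as the labels give them.

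The glyoxalase system removes methylglyoxal, a reactive by-product of glycolysis. Glyoxalase 1, the product of Glo1, joins methylglyoxal and glutathione into S-lactoylglutathione, and hydroxyacylglutathione hydrolase (glyoxalase 2, from Hagh) splits that into D-lactate and free glutathione. Glo1 is known in mouse behavioural genetics because its brain level has been linked to anxiety-like behaviour among inbred strains, and because the duplication on chromosome 17 raises its dose in some of them. Btbd9 encodes a BTB-domain adaptor of cullin 3 ubiquitin ligases, with variants linked to restless legs syndrome in people. Dnah8 encodes an axonemal dynein heavy chain of motile cilia and sperm tails, and Glp1r encodes the receptor for glucagon-like peptide 1. If the hybrid carries one duplicated and one single haplotype, it has 3 copies of Glo1 where C57BL/6J has 2. A level set by dose alone would then differ by 1.5-fold, which is 0.585 on the log2 scale. The known duplication holds Glo1 with only parts of Btbd9 and Dnah8, so for those genes 1.5-fold is a reference value and not an expectation. Gene copies were not measured in these mice.

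On GRCm38, the build of the study, Btbd9 (ENSMUSG00000062202) spans chr17:30215524-30576488 on the minus strand and Glo1 (ENSMUSG00000024026) chr17:30584936-30626871 on the minus strand. Dnah8 (ENSMUSG00000033826) spans chr17:30624354-30877365 and Glp1r (ENSMUSG00000024027) chr17:30901817-30940791, both on the plus strand. Together they cover 725 kb. Hagh (ENSMUSG00000024158) lies at chr17:24840143-24864450 on the plus strand, ending 5.35 Mb before that stretch, and served as the gene of the same pathway outside it. These spans are those of the GENCODE M21 annotation, and the counts were made with an older one. The annotated ends of Glo1 and Dnah8 overlap on opposite strands, and the small noncoding gene 1700097N02Rik shares 90 exon bases with Glo1 and 207 with Dnah8. No source used here says whether counting used strand, so reads there could not be told apart. The overlap is 0.74% of the exon bases of Glo1 and 0.77% of those of Dnah8.

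The start of Glo1 is shown first because its level carries the main result. The window runs from 250 bases before to 50 bases after the RefSeq start (GRCm38.p6, chr17:30612610-30612909, minus strand). Capitals mark every match, on either strand, to the CCAAT box (CCAAT) and the GC box (GGGCGG).

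Glo1 start window: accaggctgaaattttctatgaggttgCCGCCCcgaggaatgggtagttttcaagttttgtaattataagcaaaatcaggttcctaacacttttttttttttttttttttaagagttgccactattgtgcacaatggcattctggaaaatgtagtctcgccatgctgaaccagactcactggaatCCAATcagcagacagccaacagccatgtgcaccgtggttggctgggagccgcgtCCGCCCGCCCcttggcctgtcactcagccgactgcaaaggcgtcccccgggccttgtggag

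The window held 1 CCAAT match, starting at base -65, and 3 GGGCGG matches on the opposite strand, starting at -223, -11 and -7, the last 2 overlapping. Among 32851 windows of this length in the RefSeq table, 37.4% held CCAAT and 35.7% held GGGCGG. The TATA box letters TATAAA (13.6% of windows) and TGACNNNGC, the letters of the antioxidant response element (12.4%), were not found in it. Start windows of 4 of the 5 members were in the table, and Btbd9 was not among them.

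A second pair of sequences bears on how Glo1 reads were assigned. Gm13443 (ENSMUSG00000075391) is annotated as a processed pseudogene, an intronless copy made from a messenger RNA, at chr2:35340409-35340963 (plus strand, GRCm38). Its 555 bases align without gaps to bases 109 to 663 of the Glo1 mRNA and differ at 3 of them (99.5% identical). Written as the Glo1 base, the position from the first base of Gm13443 and the Gm13443 base, these are G9A, T75C and T225C. The first 60 bases of that alignment follow, with the differing base in capitals.

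Glo1 mRNA: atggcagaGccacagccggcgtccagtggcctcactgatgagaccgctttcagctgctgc
Gm13443: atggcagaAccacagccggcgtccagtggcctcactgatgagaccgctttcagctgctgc

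Of 23 windows of 72 bases (the read length) along the Glo1 mRNA, 14 (60.87%) matched Gm13443 with at most 2 differing bases and 9 matched it without any. Reads from such stretches can align to both places, and the deposited tables set 6.23% to 10.9% of each library apart as not uniquely aligned, in a line that was given to no gene. How many of those came from Glo1 was not tested. No window of Btbd9, Glp1r or Hagh matched another counted gene, and 0.99% of those of Dnah8 matched 1700097N02Rik.

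Library totals ran from 16938534 to 27352623 counts assigned to genes (median 21409708), so a gene with 0 counts in a library was below 0.109 to 0.172 counts per 1000000 (CPM), the level of 3 counts. Here and below, CPM are counts over the library's gene total times its TMM factor, which edgeR estimates to offset differences in RNA composition and which ran from 0.822 to 1.22. No 2 libraries held the same counts. The libraries of B6D2F1N standard mouse 1 had 0 counts of Xist, the RNA expressed from the inactive X chromosome, and 0 of each of Uty, Kdm5d, Eif2s3y and Ddx3y, which are genes of the Y chromosome, while the other 33 libraries had at least 1191 counts of Xist. Both libraries of this mouse had Gm13443 counts (71 and 69) within the range of the other B6D2F1N libraries. The summed levels of astrocyte, oligodendrocyte, microglia, endothelial and neuron markers overlapped between the strains in both portions. Single markers of a list nevertheless had fold changes of mostly one sign over all libraries (limma), where the median log2 fold change of all genes was -0.02. All 7 oligodendrocyte markers were lower in B6D2F1N, with a median of -0.67, and 0 passed an adjusted p of 0.05 while 6 (85.7%) had an unadjusted p under 0.05. Their summed level was 8083 to 24670 CPM in anterior C57BL/6J and 4792 to 31980 CPM in anterior B6D2F1N libraries, and 8207 to 28200 and 2318 to 23820 CPM in the posterior portion. The 6 microglia, 5 endothelial and 5 excitatory neuron markers were all lower too, with medians of -0.26, -0.32 and -0.43, as were 7 of 8 astrocyte markers (-0.27), while 10 of 10 ependymal markers were higher (0.41). Of the choroid plexus markers, 6 of 7 were higher, with a median of 1.73. Their summed level was 7.69 to 28.3 CPM in anterior C57BL/6J and 7.01 to 950.6 CPM in anterior B6D2F1N libraries, and 117.9 to 1484 and 360.5 to 14483 CPM in the posterior portion, where B6D2F1N enriched mice 1 and 3 had 14139 and 14483 CPM. Of these lists, 2 changed sign between the single comparisons (edgeR). The oligodendrocyte median ran from -1.03 in the enriched posterior to 0.10 in the standard posterior comparison, where 5 of 7 markers were higher. The excitatory neuron median was -0.90 in the enriched posterior and -0.47 in the standard anterior comparison, but 0.35 in the enriched anterior and 0.56 in the standard posterior one. The choroid plexus median ran from 0.66 to 2.76. The part of these shifts in the members' strain differences was not tested. Gfap, Cx3cr1, Csf1r and Slco1a4 fell and the choroid plexus genes Ttr and Clic6 rose in B6D2F1N over all libraries (adjusted p at most 0.05, limma). In bulk RNA, fewer cells of a type and less RNA per cell cannot be told apart.

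Per kilobase of mRNA, Glo1 had the highest level of the 5 genes, with 159 ± 37.0 CPM per kb (SD, n = 35 libraries). Hagh followed with 61.0 ± 12.2 and Btbd9 with 9.92 ± 2.41 CPM per kb. These 3 ranges did not overlap. Dnah8 had a median of 0.0197 and reached 0.422 CPM per kb, and Glp1r had a median of 0 and reached 0.122 CPM per kb.

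Glo1 in the anterior portion of standard-housed C57BL/6J mice was at 92.3, 88.0, 122.8 and 110 CPM. In B6D2F1N mice of the same housing it was at 129, 172, 172, 163 and 175 CPM, all above the C57BL/6J libraries. In enriched housing the anterior values were 107 and 118 CPM in C57BL/6J mice. The 5 B6D2F1N libraries had 185, 155, 137, 119 and 187 CPM. The lowest of them exceeded the higher C57BL/6J value by less than 1 CPM, and this gap was absent over plain gene totals, as given after the posterior values.

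In the posterior portion, standard-housed C57BL/6J mice had 119, 117, 106 and 99.0 CPM of Glo1. The B6D2F1N mice had 127, 239, 193, 162 and 154 CPM, again without overlap on this scale, and with the widest spread of any group. In enriched housing the posterior values were 124, 135, 114 and 112 CPM in C57BL/6J mice. In B6D2F1N mice the lowest was 146, the median 158 and the highest 164 CPM. This was the tightest B6D2F1N group, with an SD of 7.31 CPM (n = 6).

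**Figure D1:**
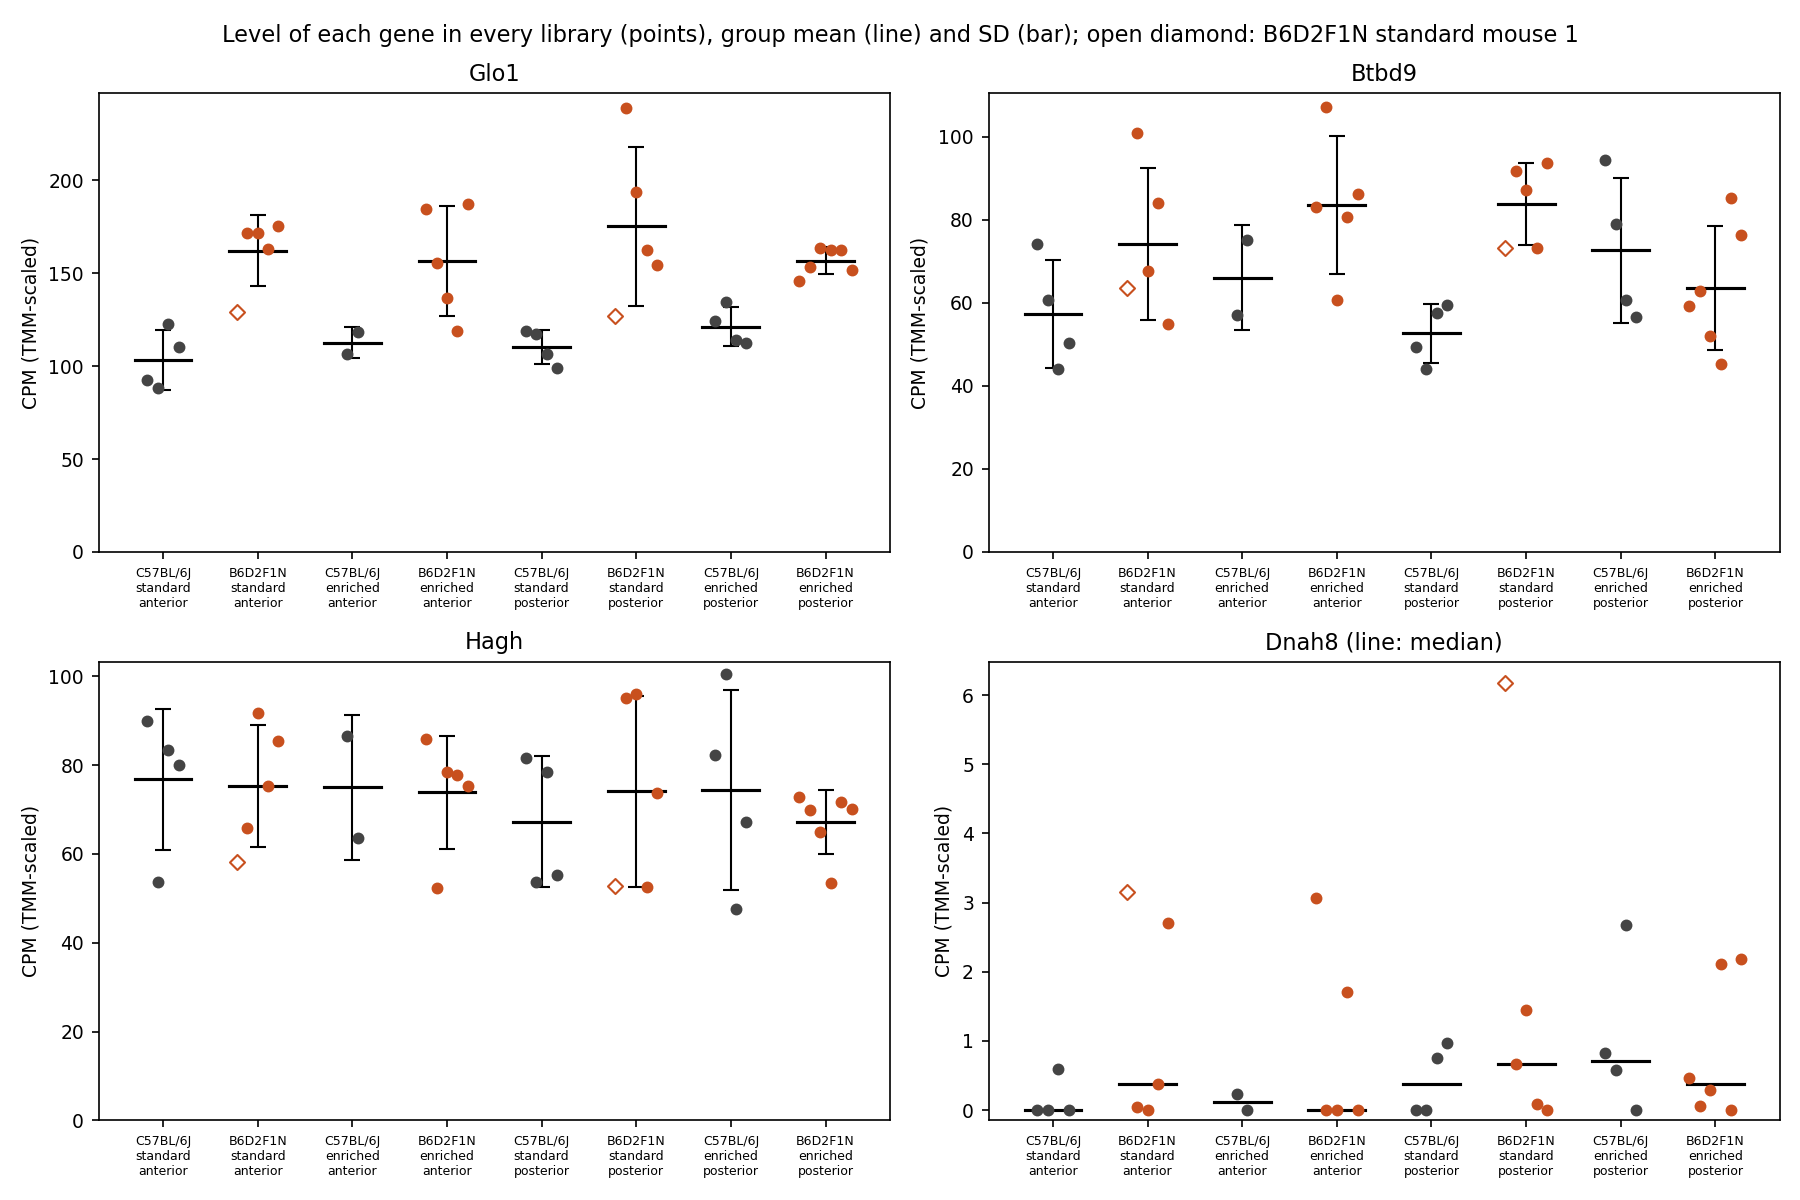
CPM (vertical axes, from 0 for Glo1, Btbd9 and Hagh) of Glo1, Btbd9, Hagh and Dnah8 in each library, by strain, housing and portion; points are libraries, lines are group means with SD bars (medians for Dnah8), and the open diamond is B6D2F1N standard mouse 1. On this TMM scale every B6D2F1N group lies above the C57BL/6J group of the same housing and portion for Glo1, with no such separation for Hagh; over plain gene totals Glo1 overlaps in 2 of the 4 pairs.

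With TMM factors, every B6D2F1N library lay above every C57BL/6J library of the same housing and portion in all 4 comparisons for Glo1. Of all genes tested, this held for 2.13% in the standard anterior comparison, 2.03% in the standard posterior, 3.21% in the enriched anterior and 1.49% in the enriched posterior comparison. It held in all 4 for 124 of the 21579 genes tested in each of them (0.575%), and for no other member. Over plain gene totals, a scale chosen after the data were seen, the separation held for Glo1 in 2 of the 4 comparisons, the standard anterior and the enriched posterior, against 2.56% and 1.66% of genes. It held for 2.44% of genes in the standard posterior, 2.46% in the enriched anterior and 0.598% in all 4 comparisons, where it did not hold for Glo1. In the enriched anterior comparison B6D2F1N mouse 4 was then at 97.9 counts per 1000000, below both C57BL/6J libraries (105 and 116). In the standard posterior comparison B6D2F1N mouse 1 was at 121.0, just under the highest C57BL/6J library at 121.6. The ratios of mean Glo1 levels on that scale were 1.65 in the standard anterior, 1.70 in the standard posterior, 1.36 in the enriched anterior and 1.35 in the enriched posterior comparison. Across housings, in CPM, 1 anterior B6D2F1N library (enriched mouse 4, 119 CPM) fell below the highest C57BL/6J library (122.8 CPM), and 1 posterior library (standard mouse 1, 127 CPM) fell below 135 CPM.

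The ratio of mean Glo1 levels, B6D2F1N over C57BL/6J, was 1.57 in the standard anterior and 1.59 in the standard posterior comparison. It was 1.39 in the enriched anterior and 1.29 in the enriched posterior comparison. Over all libraries the means were 112 CPM (n = 14) and 162 CPM (n = 21). Divided by 2 copies for C57BL/6J and by the 3 copies the duplication would give the hybrid, they came to 55.9 and 54.1 CPM per copy. The same division gave 53.4 and 56.2 CPM in standard and 59.2 and 52.2 CPM in enriched housing. It restates the ratio of means under assumed copies and is no test of dose.

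The exact two-sided permutation test over mice asked whether log2 CPM of Glo1 differed between the strains by nothing, by 1.5-fold or by 2-fold. It exchanged strain labels over all mice of a portion without regard to housing, unlike the models below. In the anterior portion the difference in means was 0.58 (6 and 10 mice), with exact permutation p = 0.0005 against no difference. The exact permutation p was 0.953 against 1.5-fold and 0.0015 against 2-fold. In the posterior portion the difference was 0.50 (8 and 11 mice), with exact permutation p = 5.29e-05 against no difference. There the exact permutation p was 0.374 against 1.5-fold and 0.000265 against 2-fold. With both portions of a mouse averaged, the difference was 0.55, and the exact permutation p was 0.00025 against no difference, the smallest that 6 against 10 mice allow, and 0.716 against 1.5-fold. Over plain gene totals the anterior and posterior differences were 0.61 and 0.57, with exact permutation p = 0.0025 and 0.000106 against no difference and 0.858 and 0.927 against 1.5-fold. The 45 exact tests on the 5 members were not adjusted for their number. Relative to 23 expressed genes flanking the stretch, a scaling chosen after the data were seen, the posterior difference was 0.38, with exact permutation p = 0.00156 against no difference and 0.086 against 1.5-fold.

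In the edgeR and limma models fitted across all genes, Glo1 was the only member past an adjusted p of 0.05 in any comparison, while DESeq2 also called Btbd9 in 1 of them, given below. The log2 fold change over all libraries, with housing and portion as covariates and the mouse as a block, was 0.53 (95% interval 0.37 to 0.70, adjusted p = 1.09e-05, limma). Glo1 was thus the 1 member called of 5 tested, where 599 of 29697 genes were called (2.02%), and it ranked 191 by p. Under the alternatives described at the end, its adjusted p was at most 0.00628 (limma, or edgeR on counts summed per mouse). The interval of the main fit held 0.585 and excluded 0 and 1. The oligodendrocyte and other marker lists given above were shifted in the same fit, and their part in the Glo1 value was not tested. In the posterior portion with both housings it was 0.52 (0.26 to 0.77, adjusted p = 0.0376, edgeR), the 1 member called of 5, against 0.858% of all genes. In the anterior portion it was 0.59 (0.30 to 0.88), with an adjusted p of 0.0592 in edgeR, so that no member was called where 0.615% of all genes were.

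The posterior call rested on a narrow margin. Leaving out 1 mouse at a time moved its adjusted p between 0.0249 and 0.104 (edgeR), and it was kept only without C57BL/6J enriched mouse 2, B6D2F1N standard mouse 1 or 5, or B6D2F1N enriched mouse 1 or 2, being lost without any of the other 14. The anterior value passed the threshold without B6D2F1N standard mouse 1 (0.62, adjusted p = 0.0465, edgeR) or without B6D2F1N enriched mouse 4 (0.62, adjusted p = 0.0261, edgeR). Over all libraries the log2 fold change without any single mouse stayed between 0.49 and 0.57, with adjusted p of at most 0.000105 (limma).

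Within single housings the intervals were wider. Glo1 differed by 0.65 (0.27 to 1.02, adjusted p = 0.261) in the standard anterior and by 0.70 (0.25 to 1.15, adjusted p = 0.312) in the standard posterior comparison (edgeR). It differed by 0.50 (-0.09 to 1.08, adjusted p = 1.00) in the enriched anterior and by 0.36 (0.03 to 0.70, adjusted p = 0.524) in the enriched posterior comparison (edgeR). No member passed in these 4 comparisons, where 0.370%, 0.373%, 0.0639% and 0.394% of genes were called in the same order. Leaving out 1 mouse moved the 94 genes called in the standard posterior comparison to between 59 (without C57BL/6J mouse 4) and 166 (without B6D2F1N mouse 1), with 61 without C57BL/6J mouse 2 and 60 without B6D2F1N mouse 3. The 15 called in the enriched anterior comparison became 1 without C57BL/6J mouse 1 and 6 without C57BL/6J mouse 3, and each of these fits left 1 C57BL/6J library, assumed to vary like the other group. All 4 intervals held the 1.5-fold value, and that of the enriched posterior comparison excluded 2-fold. DESeq2 called Glo1 in the standard anterior comparison (0.64, adjusted p = 0.0136).

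**Figure D2:**
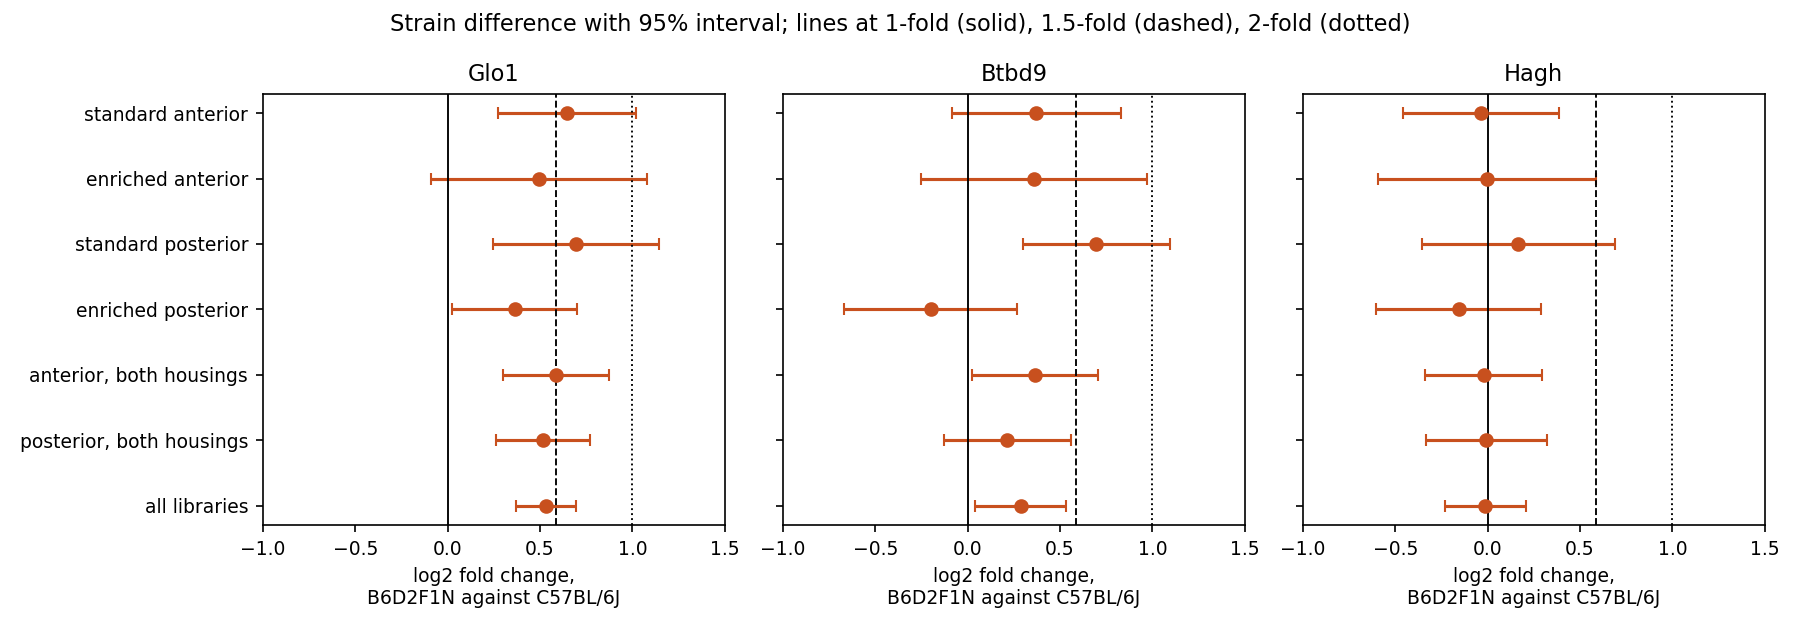
Log2 fold change of B6D2F1N against C57BL/6J (horizontal axis) with its 95% interval for Glo1, Btbd9 and Hagh in the 4 single comparisons, the 2 portions and all libraries; vertical lines mark 1-fold, 1.5-fold and 2-fold. All Glo1 intervals hold 1.5-fold, while the Hagh estimates lie between -0.16 and 0.17.

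Without B6D2F1N standard mouse 1, the mouse with 0 Xist counts, Glo1 differed by 0.57 over all libraries (adjusted p = 2e-06, limma). It then differed by 0.72 in the standard anterior and by 0.80 in the standard posterior comparison, with adjusted p of 0.138 and 0.117 (edgeR). This mouse had the lowest Glo1 level of the standard B6D2F1N groups in both portions, and the direction was the same with and without it.

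Gm13443 had 0 to 6 counts in the 14 C57BL/6J libraries and 40 to 175 counts in the 21 B6D2F1N libraries, so the strains were far apart. Its log2 fold change over all libraries was 4.99 (4.41 to 5.57, adjusted p = 5.56e-17, limma). In B6D2F1N libraries its count was 1.91% to 3.44% of that of Glo1, and in C57BL/6J libraries at most 0.222%. Adding its reads to those of Glo1, a choice made after the data were seen, gave a log2 fold change of 0.57 over all libraries (adjusted p = 2.94e-06, limma) and a ratio of means of 1.49. The anterior value then passed the threshold (0.62, adjusted p = 0.0359, edgeR). Whether reads of a DBA/2 allele of Glo1 were placed on Gm13443, or were lost in alignment to a C57BL/6J genome, was not tested.

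**Figure D3:**
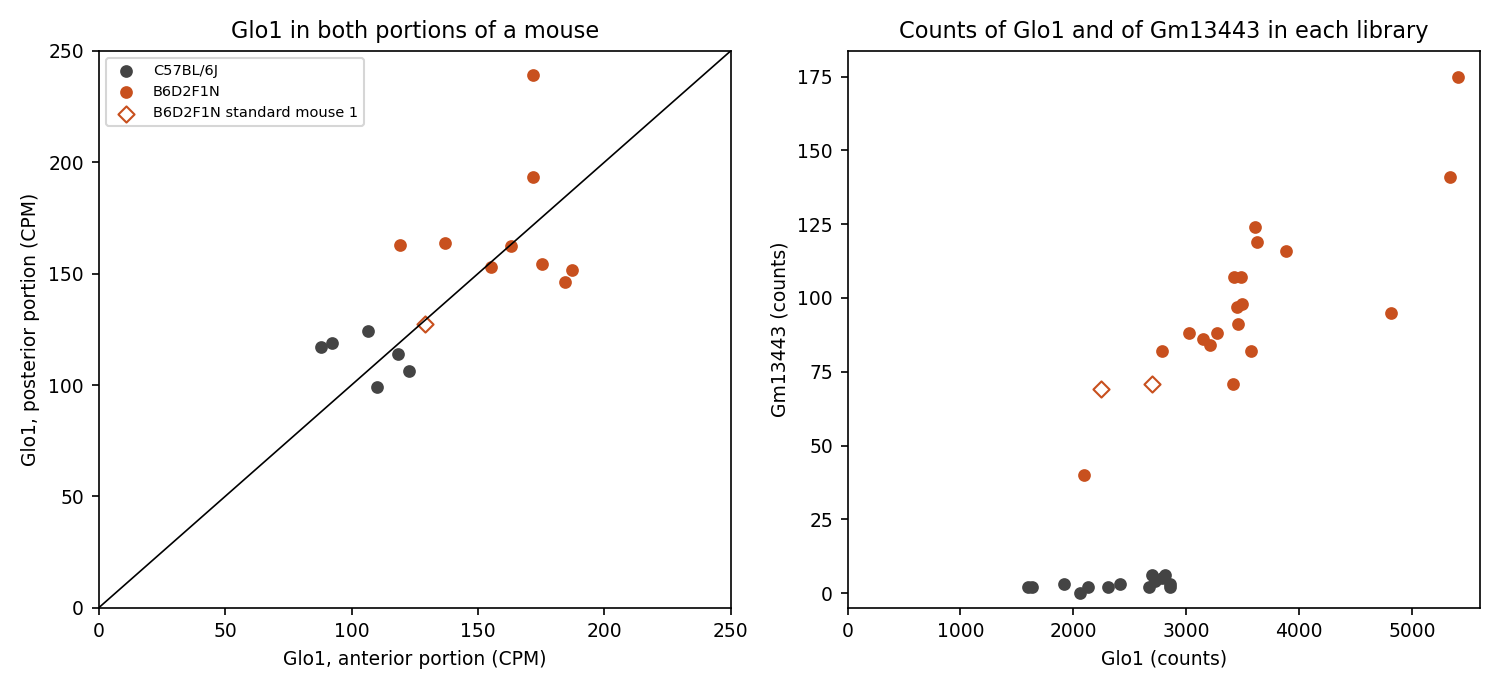
Left, Glo1 CPM in the anterior (horizontal) and posterior (vertical) portion of the 16 mice with both, with the line of equal level; right, counts of Glo1 (horizontal) and Gm13443 (vertical) in each of the 35 libraries. C57BL/6J libraries have at most 6 counts of Gm13443 and B6D2F1N libraries at least 40; the open diamond is B6D2F1N standard mouse 1.

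Hagh overlapped between the strains in every group. Its anterior levels ran from 53.8 to 90.0 CPM in C57BL/6J and from 52.2 to 91.7 CPM in B6D2F1N libraries. Its posterior levels ran from 47.5 to 100.5 CPM and from 52.6 to 96.0 CPM. The log2 fold change over all libraries was -0.01 (-0.23 to 0.21, adjusted p = 0.983, limma), an interval that excludes 1.5-fold. Exact permutation tests gave p = 0.853 in the anterior and p = 0.989 in the posterior portion against no difference, and p = 0.0015 and 0.00238 against 1.5-fold.

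Btbd9 was less even. In the standard posterior comparison C57BL/6J mice had 49.3, 44.1, 57.6 and 59.4 CPM, and B6D2F1N mice had 73.2, 91.8, 87.1, 73.2 and 93.6 CPM, without overlap. In the enriched posterior comparison C57BL/6J mice had 94.4, 78.9, 60.6 and 56.4 CPM, and B6D2F1N mice had a lowest value of 45.4, a median of 61.0 and a highest of 85.1 CPM. There the groups overlapped and the B6D2F1N mean was the lower one.

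The log2 fold change of Btbd9 was 0.70 (0.30 to 1.09, adjusted p = 0.229) in the standard posterior and -0.20 (-0.67 to 0.27, adjusted p = 0.876) in the enriched posterior comparison (edgeR). DESeq2 called the first of these (0.69, adjusted p = 0.0134). Leaving out 1 mouse moved the second between -0.31 and -0.04, and alternatives moved it between -0.39 and -0.13. The difference between the 2 effects was -0.89 (-1.47 to -0.31), with an adjusted p of 0.491 in the edgeR interaction fit. No gene passed in that fit (0%), nor in the anterior one (0%), where 2335 and 1576 genes had an unadjusted p under 0.05 and where DESeq2 called 37 and 7 genes. Without B6D2F1N standard mouse 1 the posterior fit called 14. For Glo1 the same difference of effects was -0.33 (-0.82 to 0.17, adjusted p = 0.787) in the posterior and -0.17 (-0.76 to 0.43, adjusted p = 1.00) in the anterior portion (edgeR). Leaving out 1 mouse moved these values between -0.42 (without B6D2F1N standard mouse 1) and -0.19 (without B6D2F1N standard mouse 2) and between -0.26 and -0.09, none of them past the threshold.

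In the anterior portion Btbd9 overlapped between the strains in both housings. Its range was 44.1 to 75.0 CPM in 6 C57BL/6J libraries and 54.9 to 107.2 CPM in 10 B6D2F1N libraries. The exact permutation test gave p = 0.0335 in the anterior and p = 0.19 in the posterior portion against no difference, and p = 0.226 and p = 0.0364 against 1.5-fold. Leaving out 1 mouse moved the anterior exact permutation p between 0.0152 and 0.0866, exceeding 0.05 without C57BL/6J standard mouse 3 or 4, C57BL/6J enriched mouse 1, B6D2F1N standard mouse 2 or B6D2F1N enriched mouse 2. The posterior value against 1.5-fold became an exact permutation p of 0.0939 over plain gene totals. Relative to the flanking genes the anterior difference of Btbd9 was 0.37 with an exact permutation p of 0.136 against no difference. The posterior one was 0.10, from 0.22, with an exact permutation p of 0.615 against no difference and 0.0201 against 1.5-fold. Over all libraries its log2 fold change was 0.29 (0.04 to 0.53, adjusted p = 0.339, limma), an interval below 0.585. That value is a reference here, since the known duplication holds only part of Btbd9.

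Dnah8 was at 0 counts in 13 of the 35 libraries and at 3 counts or fewer in 16. In the anterior portion the 6 C57BL/6J libraries had 0, 0, 13, 0, 5 and 0 counts. The 10 B6D2F1N libraries had a lowest value of 0 and a highest of 66 counts, and 4 of them had 30 counts or more. In the posterior portion the range was 0 to 64 counts in C57BL/6J and 0 to 109 counts in B6D2F1N libraries, so the strains overlapped in both portions. B6D2F1N standard mouse 1 had the highest Dnah8 level of either portion, with 3.16 and 6.17 CPM.

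No strain difference in Dnah8 was detectable, with an exact permutation p of 0.164 in the anterior and 0.69 in the posterior portion. The interval over all libraries, -0.66 to 3.07 on the log2 scale (adjusted p = 0.706, limma), held 0, 1.5-fold and 2-fold alike. Without B6D2F1N standard mouse 1 the log2 fold change went from 1.20 to 0.75. Dnah8 works in motile cilia, so ependymal markers were read beside it. All 10 of them were detected in each strain and portion. Their summed level was 10.8 to 20.9 CPM in anterior C57BL/6J and 10.3 to 53.3 CPM in anterior B6D2F1N libraries, and 23.8 to 255.3 CPM and 41.6 to 268.8 CPM in the posterior portion. The choroid plexus markers, whose ranges are given above, were also higher in B6D2F1N over all libraries, in 6 of 7 (median 1.73). The part of either list in the Dnah8 level was not tested.

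Glp1r was at 0 counts in 21 libraries and at 3 counts or fewer in 28. The highest value was 17 counts, 0.707 CPM, in posterior C57BL/6J standard mouse 1. In the anterior portion 1 of 6 C57BL/6J and 4 of 10 B6D2F1N libraries had any count, with 5 counts at most. A strain difference was not detectable at this depth, and no fold is given.

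The neighbourhood outside the stretch was examined to see whether the Glo1 difference extended along the chromosome. Of the genes within 1 Mb on either side, 33 could be tested over all libraries, and 0 passed an adjusted p of 0.05 in limma, with 5 (15.2%) at an unadjusted p under 0.05. Of all genes 2.02% passed and 10.9% had an unadjusted p under 0.05, so a count of 0 in 33 lies near the share of all genes and is not a result about the neighbours. None passed in the 6 edgeR strain fits either. Of the 23 with a mean of at least 1 CPM, 10 were higher and 13 lower in B6D2F1N, with a median log2 fold change of -0.02 and a range of -0.91 to 1.05. The median of all 29697 genes was -0.02.

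The nearest expressed neighbours were Zfand3, which encodes a zinc finger protein, before Btbd9 and the cholesterol transporter gene Abcg1 after Glp1r. Zfand3 had means of 27.3 and 25.4 CPM in C57BL/6J and B6D2F1N libraries (log2 fold change -0.11, adjusted p = 0.848, limma). Abcg1, named after its level was seen, had 494 and 496 CPM (log2 fold change -0.01, adjusted p = 0.990, limma). The nearest tested gene after Glp1r by position, Umodl1, had means of 0.0198 and 0.215 CPM (adjusted p = 0.520, limma). Between the members, 1700097N02Rik and Gm9874 were tested, with means under 1 CPM in both strains and adjusted p of 0.569 and 0.901 (limma). On the whole of chromosome 17, 38 of 1138 genes tested were called (3.34%), of which 28 were higher in B6D2F1N.

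Of 60 pathway genes around the members, 0 passed in any of the 7 strain fits (edgeR for 6, limma for all libraries), and 10 (16.7%) had an unadjusted p under 0.05 in the fit over all libraries, from which the following values are taken. In that fit 2.02% of all genes passed and 10.9% had an unadjusted p under 0.05, so nothing is read from the count of 0. Of 12 other enzymes that remove methylglyoxal or D-lactate, 4 were higher and 8 lower in B6D2F1N, with a median log2 fold change of -0.06. The most abundant were the aldo-keto reductase gene Akr1a1, at 238 and 209 CPM in C57BL/6J and B6D2F1N (adjusted p = 0.455, limma), and Park7, which encodes DJ-1, at 200 and 191 CPM (adjusted p = 0.904, limma). Of 11 genes of glutathione synthesis and recycling, 2 were higher and 9 lower, with a median of -0.26. In the posterior portion all 11 were lower, with a median of -0.25, and in the anterior 6 of 11 were higher. In that posterior fit all 7 oligodendrocyte, 6 microglia and 5 endothelial markers were lower too, with medians of -0.40, -0.29 and -0.34. So were 7 of 8 astrocyte (-0.23) and 4 of 5 excitatory neuron markers (-0.44). Ependymal (10 of 10), choroid plexus (7 of 7), inhibitory neuron (4 of 5) and striatal neuron markers (3 of 5) were higher. The part of these lists in the glutathione values was not tested. Slc3a2, the heavy chain of the cystine transporter, had 493 and 380 CPM (adjusted p = 0.386, limma), and the cysteine and glutamate transporter gene Slc1a1 had 361 and 311 CPM (adjusted p = 0.564, limma).

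Of 9 glycolytic genes up to glyceraldehyde 3-phosphate dehydrogenase, all had negative log2 fold changes, with a median of -0.13. In the same fit 7 of 8 astrocyte markers, with Aldoc among them, and 7 of 7 oligodendrocyte markers were lower, with medians of -0.27 and -0.67, and their part in the glycolytic values was not tested. The brain aldolase gene Aldoc had 1881 and 1502 CPM (log2 fold change -0.36, adjusted p = 0.0515, limma) and Aldoa 1491 and 1392 CPM (adjusted p = 0.744, limma). Of the 14 other axonemal dynein heavy chains, 11 were higher and 3 lower, with a median of 0.33. In the same fit 10 of 10 ependymal markers and 6 of 7 choroid plexus markers were higher, with medians of 0.41 and 1.73, and their part in the dynein values was not tested. Dnah1, at 10.2 and 13.4 CPM, and Dnah9, at 9.17 and 9.98 CPM, were the most abundant (adjusted p = 0.491 and 0.979, limma). Of the glucagon family, 5 of 6 genes were tested, with 1 higher and 4 lower and a median of -0.98. The standard anterior and enriched posterior comparisons also gave 1 higher and 4 lower (edgeR). The enriched anterior comparison gave 4 higher and 1 lower, with a median of 0.61, and the standard posterior 2 and 2 (edgeR). Gcg, the precursor of glucagon-like peptide 1, had 3.22 and 2.26 CPM (adjusted p = 0.468, limma), and Gipr, the receptor for the incretin GIP, 3.08 and 1.91 CPM (adjusted p = 0.234, limma). Of 8 other Btbd genes and Cul3, 4 were higher and 5 lower, with Btbd10 at 82.3 and 71 CPM and Btbd3 at 67.3 and 71.8 CPM (adjusted p = 0.458 and 0.907, limma).

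The genes whose levels followed Glo1 most closely over the 19 posterior libraries, among 16022 genes with a mean of at least 1 CPM, were Tuba1c, Mpc1-ps, Rasal2, Gm7172 and Gm6472. Pearson's r of log2 CPM was 0.86, 0.86, 0.85, 0.85 and 0.85, and Spearman's rho 0.79, 0.82, 0.85, 0.85 and 0.83. In the 16 anterior libraries r was 0.72, 0.88, 0.72, 0.86 and 0.87 and rho 0.77, 0.91, 0.64, 0.91 and 0.87. None lies on chromosome 17. All 5 were called higher in B6D2F1N over all libraries, with adjusted p of at most 5.4e-05 (limma), and the points share strain and library. Btbd9 ranked 775 on this list, with r = 0.46 in the posterior and 0.44 in the anterior portion, and Hagh ranked 1448, with 0.38 and 0.13.

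No member differed between the portions past the threshold. In mice with both portions, Glo1 was higher in the posterior in 3 of 6 C57BL/6J animals and in 4 of 10 B6D2F1N animals, with log2 fold changes of 0.08 (-0.23 to 0.40, adjusted p = 0.905) and 0.04 (-0.21 to 0.29, adjusted p = 0.918) in the paired edgeR fits. Hagh was higher in the posterior in 0 of 6 C57BL/6J animals, of which mouse 2 of standard housing had 53.8 CPM in both portions, and in 3 of 10 B6D2F1N animals. Its log2 fold changes were -0.22 (-0.54 to 0.10, adjusted p = 0.613) and -0.11 (-0.39 to 0.17, adjusted p = 0.755) in those fits. No member was called there, where 3.64% of genes in C57BL/6J and 4.00% in B6D2F1N were. The 937 genes called in C57BL/6J became 606 without standard mouse 1 and 602 without standard mouse 4. The strain difference in Glo1 changed between the portions by -0.05 (-0.43 to 0.34, adjusted p = 1.00, edgeR), in a fit that called 0% of genes and gave 871 of them an unadjusted p under 0.05.

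No member passed the threshold between housings. Enriched against standard housing gave Glo1 log2 fold changes of 0.11 and 0.16 in the anterior and posterior portion of C57BL/6J mice. In the same portions of B6D2F1N animals it gave -0.04 and -0.18, and every adjusted p was at least 0.864 (edgeR). Leaving out 1 mouse moved these values between 0.05 and 0.21, 0.10 and 0.20, -0.13 and 0.03, and -0.30 and -0.06 in the same order, with adjusted p of at least 0.724 (edgeR). Btbd9 had 0.48 (0.00 to 0.97, adjusted p = 0.484) in the C57BL/6J posterior and -0.42 (-0.81 to -0.03, adjusted p = 0.752) in the B6D2F1N posterior comparison (edgeR). Of all genes, 0%, 0.0163%, 0% and 0% were called in C57BL/6J anterior, C57BL/6J posterior, B6D2F1N anterior and B6D2F1N posterior, with 1418, 1553 and 1716 unadjusted p under 0.05 in the 3 fits without a call, where DESeq2 called 100, 8 and 14 genes. These counts moved with the setting. In the C57BL/6J posterior comparison the 4 genes called became 172 without enriched mouse 3 and 0 without any other mouse, 319 with DESeq2, 112 with no count minimum and 9 with total counts. In the C57BL/6J anterior comparison 274 genes were called with no count minimum, and in the B6D2F1N posterior comparison 10 without standard mouse 1. These comparisons share libraries with the strain comparisons.

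The labels name some mice as optimists and others as pessimists in the judgement bias test. All optimists were kept in standard housing, where B6D2F1N standard mouse 1 was the only pessimist. With housing as a covariate, the bias value of either portion therefore rests on that 1 mouse. Set against pessimists, with strain and housing as covariates, optimists differed in Glo1 by 0.41 (-0.25 to 1.08, adjusted p = 0.876) in the anterior (4 and 4 libraries) and by 0.35 (-0.47 to 1.17, adjusted p = 1.00) in the posterior portion (4 and 5 libraries, edgeR). No member passed, and 0.00414% and 0.00396% of genes did, which is 1 gene in each fit. With no count minimum 22 and 79 genes were called, with DESeq2 19 in each, without strain and housing as covariates 0 in each, and without B6D2F1N enriched mouse 2 the anterior fit called 2. Without the covariates the Glo1 differences became 0.11 and 0.18. With them, leaving out another mouse than B6D2F1N standard mouse 1 gave 0.38 to 0.44 (anterior) and 0.22 to 0.44 (posterior). B6D2F1N standard mouse 1 had the low Glo1 values given above, and bias cannot be fitted with these covariates without it. Intervals of this width do not show that the groups were alike.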

How the data were processed

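Counts of 35 libraries of polyadenylated RNA from laser-captured tissue, sequenced in single reads of 72 bases, were used here. The study's methods give further enriched anterior samples, which were not analysed here. Per the labels and methods, the authors trimmed reads (Trimmomatic 0.38), aligned them to GRCm38 (HISAT2 2.1.0), kept primary alignments (SAMtools 1.8) and deposited raw counts per Ensembl gene from HTSeq 0.11.2. The strand setting is not given in the sources used here. HTSeq's summary lines (reads in no gene, 13.7% to 26.4%; ambiguous, 3.06% to 3.74%; not unique, 6.23% to 10.9%) were left out of library totals and tests.

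CPM were counts over the library's gene total times its TMM factor (estimated once over all 35 libraries), per 1000000. Strain, housing, portion and bias were tested on counts with edgeR 4.0.16 (R 4.3.3; TMM, at least 10 counts in total, quasi-likelihood F test, Benjamini-Hochberg over all genes, threshold 0.05), and strain over all libraries with limma 3.58.1 (voom, mouse as block, correlation 0.0303). Exact two-sided permutation tests over mice used log2 CPM with a prior count of 2. The scripts were tested on simulated data. DESeq2 1.42.0, other filters, scalings and samples, and leaving out each mouse were alternatives. Adding Gm13443 reads, scaling to flanking genes or to plain gene totals and the exact tests without each mouse were chosen after seeing the data. Windows of 72 bases were matched to transcripts with bwa 0.7.19. Sequences came from RefSeq (GRCm38.p6) and the GENCODE M21 transcripts. Named genes were the 5 members, tested neighbours within 1 Mb, the most abundant genes of each pathway list and the 5 genes most like Glo1 in the posterior portion. Members and lists were chosen with earlier results of these data known.

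The labels tie both portions to a mouse, which is the block in the portion fits. Deviations of a mouse's portions from their group means correlated with a median r of 0.048 (-0.105 to 0.221) over 16 mice and 16023 genes.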

Additional observations from a re-analysis of the deposited data

Results flagged for a closer look

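In 4 of the 32 groups of 4 to 6 libraries that were checked, the highest or lowest library lay far from the others by Dixon's criterion, which chance alone gives in about 1 in 20 groups. That rate does not apply to 2 of the 4, Glp1r and anterior Dnah8, where all other libraries of the group were at 0 and any count above 0 meets the criterion. Glo1 in anterior B6D2F1N standard mouse 1 was at 129.0 CPM, below the next library at 162.9 CPM. Dnah8 in the posterior portion of the same mouse was at 6.169 CPM, with the next library at 1.449 CPM. Glp1r there was at 0.283 CPM, from 5 counts, with 0 in the other 4 libraries. Dnah8 in anterior C57BL/6J standard mouse 3 was at 0.5977 CPM, from 13 counts, with 0 in the other 3 libraries. Values of Glo1 and Dnah8 without B6D2F1N standard mouse 1, which also had 0 Xist counts, stand beside the results above.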

How the results depend on the processing

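Over all libraries Glo1 was the member called under all 8 alternatives and without any single mouse. In the anterior portion with both housings it was called, at 0.58 with DESeq2, 0.59 with filterByExpr, 0.59 with robust empirical Bayes and 0.62 with Gm13443 reads added, each giving 1 member called. In the posterior portion it was not called, giving 0 members, with no count minimum (0.51, adjusted p = 0.0741, edgeR) or in mice with both portions (0.56, adjusted p = 0.102, edgeR). With DESeq2, 1 member was called in the standard anterior comparison (Glo1, 0.64) and 1 in the standard posterior (Btbd9, 0.69). Without single mice Glo1 ranged from 0.54 to 0.63 (anterior) and 0.45 to 0.56 (posterior), with 0 to 1 members called in each. Hagh, near 0, became 0.0008 with DESeq2 size factors, 0.0458 with total counts, 0.0392 in mice with both portions and 0.0372 with edgeR on counts summed per mouse, and ranged from -0.0847 to 0.0447 without single mice. Glo1 between housings in anterior B6D2F1N mice ranged from -0.127 to 0.0339. The cause of these shifts was not tested. DESeq2 called 257, 392, 137 and 342 genes in the 4 single strain comparisons, where edgeR called 90, 94, 15 and 101. It called 358 and 532 in the 2 portions, where edgeR called 162 and 239, and 1512 and 1994 between portions, where edgeR called 937 and 1110. In the enriched anterior comparison 57 genes were called without a minimum and 44 in 1 fit over 4 groups, in the enriched posterior 35 in mice with both portions, and over all libraries 320 with edgeR on counts summed per mouse, which changes both test and summing, where limma called 599 on single libraries. In the portion fits without the mouse block, Glo1 was at 0.08 (C57BL/6J) and 0.05 (B6D2F1N), 706 and 1172 genes were called, and no member's call changed. Other alternatives of these fits brought Glo1 up to 0.18 and 0.21. Leaving out 1 mouse moved it between 0.03 and 0.15 (C57BL/6J) and between 0.002 and 0.11 (B6D2F1N). Alternatives of the strain by portion fit, and DESeq2 over all libraries, were not run. Depth limits Dnah8 and Glp1r, with 3 counts or fewer in 16 and 28 libraries.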
